A study of Mus musculus with 20 samples.

Results

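Transcript levels of 9 genes known from secretory cells of the conducting airway were followed across 4 treatment groups of mouse lung T cell preparations. The genes were Scgb1a1, Scgb3a2, Scgb3a1, Cyp2f2, Pigr, Bpifa1, Cxcl17, Slc26a4 and Vnn1, and all 9 were measured among the 17097 genes on the arrays. Each gene was read from the probe set with exactly 1 gene symbol and the highest mean over the 20 arrays. Only Pigr had a second such probe set, with a mean log2 value of 6.254 against 6.665 for the one used. No filter on level was applied, so none of the 9 genes was lost.

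The cells were CD44+CD8+ effector T cells purified from mouse lungs that bore tumours of 4T1, a mouse mammary carcinoma cell line. The mice received intranasal saline (Saline-CTRL, 5 arrays), SD-101 (6 arrays), SD-101+anti-PD-1 (the dual group, 5 arrays) or SD-101+anti-PD-1+a-CD4 (4 arrays, called triple group). SD-101 is a synthetic ligand of TLR9, a sensor of microbial DNA inside immune cells, and anti-PD-1 blocks an inhibitory receptor of T cells. The a-CD4 agent is named for CD4, the marker of helper T cells. All groups shared the tumour, the organ and the purification, and no group without a tumour is analysed here. The labels do not say which arrays came from separate animals, or give strain, age or times, so each p-value measures only the spread between these samples.

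The conducting airway is lined by ciliated cells, by mucous cells and by club cells, which are secretory cells that release secretoglobins and hold cytochrome P450 enzymes. Secretory cells also carry antibodies into the airway lumen, secrete antimicrobial and lipid-binding proteins, and set the chloride and bicarbonate of the surface liquid. None of the 9 genes is known as a marker of T cells. A marker of the sorted cell type was high on all arrays: Cd8a lay between 9.45 and 11.66 on the log2 scale over the 20 arrays, while Cd4 lay between 2.69 and 3.51 and below the median of its own array on 20 of 20. The alveolar type 2 cell gene Sftpc, which encodes a surfactant protein, was also high on all arrays, between 12.53 and 13.44, where the highest value on an array was 13.23 to 13.44. In a preparation of many cells, fewer cells of a type and less RNA per cell cannot be told apart.

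Array medians lay between 3.52 and 3.75. Of the arrays, 2 stood apart by a low level of 9 T cell markers (the mean of their log2 values), which was 8.66 on triple-group replicate 2 and 9.08 on Saline-CTRL replicate 1. Results that rested on these arrays are given with and without them.

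Promoter sequence was used for 5 of the 9 genes, and 4 are shown because they come from 2 sets of genes, Pigr with Slc26a4 and Scgb3a1 with Bpifa1, that varied together across arrays. Each run covers the 250 bases before the transcription start in RefSeq, build GRCm38.p6, 5′ to 3′ on the gene's strand. Capitals mark matches on either strand to 7 short motifs: the TATA box TATAAA, an interferon element (2 copies of GAAA with 2 free bases between them), a short STAT element (TTCNNNGAA), a long STAT element (TTC and GAA with 4 free bases between them), the forkhead core TGTTTNC, the NKX2-1 core CTCAAG and the E-box CACGTG.
Pigr: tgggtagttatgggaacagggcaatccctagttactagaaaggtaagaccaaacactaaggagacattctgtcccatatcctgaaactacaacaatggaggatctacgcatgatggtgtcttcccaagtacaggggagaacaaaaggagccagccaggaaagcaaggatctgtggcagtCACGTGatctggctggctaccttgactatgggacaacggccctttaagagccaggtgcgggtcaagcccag
Slc26a4: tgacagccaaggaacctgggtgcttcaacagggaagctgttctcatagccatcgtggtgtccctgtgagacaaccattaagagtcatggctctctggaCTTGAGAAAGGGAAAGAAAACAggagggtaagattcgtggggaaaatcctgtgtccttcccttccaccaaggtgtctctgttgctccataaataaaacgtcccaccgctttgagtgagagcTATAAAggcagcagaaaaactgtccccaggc
Scgb3a1: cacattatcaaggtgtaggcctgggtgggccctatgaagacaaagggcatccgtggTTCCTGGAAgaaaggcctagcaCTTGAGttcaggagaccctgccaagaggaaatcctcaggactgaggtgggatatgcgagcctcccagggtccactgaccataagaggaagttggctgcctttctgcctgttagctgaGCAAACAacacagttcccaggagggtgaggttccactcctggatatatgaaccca
Bpifa1: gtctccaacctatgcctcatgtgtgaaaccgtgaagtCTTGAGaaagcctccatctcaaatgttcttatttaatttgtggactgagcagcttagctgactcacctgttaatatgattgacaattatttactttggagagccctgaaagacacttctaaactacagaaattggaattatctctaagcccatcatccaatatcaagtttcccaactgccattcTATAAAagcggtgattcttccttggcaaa

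The Pigr run lies at chr1:130826434-130826683 on the plus strand, Slc26a4 at chr12:31559985-31560234 on the minus strand, Scgb3a1 at chr11:49663345-49663594 on the plus strand and Bpifa1 at chr2:154142630-154142879 on the plus strand. Slc26a4 carried the interferon element at positions -147 to -138 from its start, which 2.98% of 32851 mouse promoters of this length hold. Directly beside it lay a reverse NKX2-1 core, which shared 1 base with it, and a reverse forkhead core, so the capitals there form a single run. Pigr carried the E-box, found in 6.02% of promoters, and Scgb3a1 the short STAT element, found in 7.02%. Both of these motifs are symmetrical, so each match is read on both strands at 1 place. A TATA box close to the start was present in Slc26a4 and Bpifa1, as somewhere in 12.4% of promoters. The NKX2-1 core, in 13.3% of promoters, was present in Slc26a4, Scgb3a1 and Bpifa1, and the forkhead core, in 17.8%, in Slc26a4 and Scgb3a1. The long STAT element, in 5.85% of promoters, matched in none of the 5, and Cyp2f2 matched none of the 7 motifs in this window. A match is a string of letters and was not tested for binding.

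In the dual group 8 of the 9 genes had a higher mean than under saline, by up to 15.7-fold for Pigr, and Bpifa1 alone had a lower one. Pigr, Cxcl17, Slc26a4 and Vnn1 were chosen by their log2 differences in this comparison, being among its largest rises, so its values are a description and were not tested. The median log2 difference of the 9 genes was 2.36, against 0.031 over all 17097 genes. In 6 of the 9 genes every dual-group array lay above every saline array, as did 3.36% of all genes. The other comparisons reuse these arrays, except the triple group against SD-101, so calls made against the dual-group or saline arrays are not independent of that choice.

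**Figure D1:**
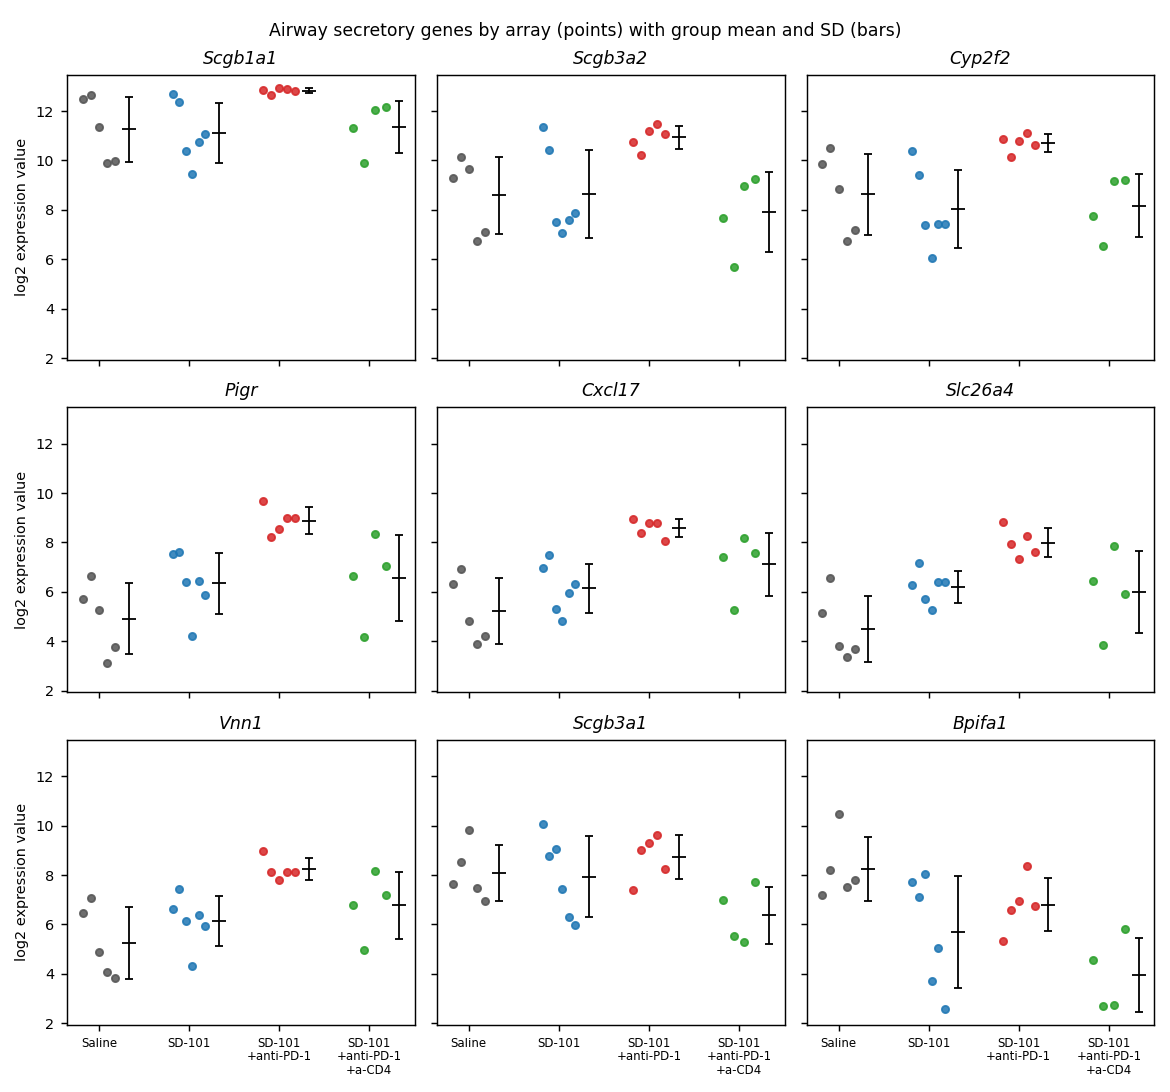
Log2 expression values of the 9 genes on the 20 arrays by treatment group, with points for arrays in replicate order and bars for the group mean and SD. The dual-group points (SD-101+anti-PD-1 on the axis) have the highest group mean and lie close together for Scgb1a1, Scgb3a2, Cyp2f2, Pigr, Cxcl17, Slc26a4 and Vnn1. Single arrays of other groups reach into their range. Bpifa1 has its highest mean, 8.23, in Saline-CTRL.

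Scgb1a1 encodes the main secretoglobin of club cells. Its log2 values were 12.49, 12.63, 11.35, 9.88 and 9.98 in the saline replicates 1 to 5, and 12.84, 12.65, 12.95, 12.87 and 12.80 in the dual group. The SD-101 arrays ran from 9.47 through a median of 10.90 to 12.67, and the triple-group arrays were at 11.31, 9.90, 12.06 and 12.15. All dual-group arrays lay above all saline arrays, but the gap was narrow because saline replicates 1 and 2 were nearly as high. The group spread was small in the dual group, with an SD of 0.11 (n = 5), and 1.32 (n = 5), 1.21 (n = 6) and 1.04 (n = 4) in saline, SD-101 and the triple group. The highest values came within 1 log2 unit of the top of the array scale.

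Scgb3a2, a second secretoglobin of the airway, averaged 10.94 ± 0.47 (SD, n = 5) in the dual group, 8.59 ± 1.55 (n = 5) in saline, 8.64 ± 1.8 (n = 6) in SD-101 and 7.91 ± 1.62 (n = 4) in the triple group. The 3 groups at the lower end of that order overlapped one another. SD-101 also overlapped the dual group, which ran from 10.24 to 11.46, as SD-101 replicates 1 and 2 read 11.37 and 10.44. Only 1 of 5 dual-group arrays lay above all SD-101 arrays. Saline replicates 4 and 5, at 6.75 and 7.10, and triple-group replicate 2, at 5.71, were the lowest arrays of their groups, as they also were for Scgb1a1.

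Cyp2f2 encodes the cytochrome P450 of mouse club cells that activates naphthalene. Saline values were 9.87, 10.50, 8.84, 6.76 and 7.19, and dual-group values were 10.88, 10.14, 10.77, 11.12 and 10.64. SD-101 values had a lowest of 6.07, a median of 7.44 and a highest of 10.40, and triple-group values were 7.74, 6.56, 9.18 and 9.21. The dual group was above every SD-101 array on 4 of 5 arrays, and SD-101 replicate 1 reached into its range. The difference from SD-101 was 2.69 (SE 0.75), or 6.43-fold, with a limma adjusted p of 0.0473, and Cyp2f2 was called higher.

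Pigr encodes the receptor that moves polymeric antibodies across epithelium. It read 5.73, 6.66, 5.27, 3.13 and 3.78 on the saline arrays and 9.69, 8.23, 8.54, 8.97 and 8.99 on the dual-group arrays. The SD-101 arrays spanned 4.23 to 7.63 with a median of 6.42, and those of the triple group read 6.66, 4.18, 8.34 and 7.03. No dual-group array overlapped the saline or SD-101 arrays, and 1 of 4 triple-group arrays reached the dual-group range. Against SD-101 the log2 difference was 2.54 (SE 0.72), and its limma adjusted p of 0.0508 just missed the threshold of 0.05. The second Pigr probe set had group means of 4.55, 5.77, 8.45 and 6.37 in saline, SD-101, the dual group and the triple group, the same order as the first. With the mean of both probe sets, Pigr was called against SD-101 (log2 difference 2.61, limma adjusted p = 0.03).

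Cxcl17 encodes a chemokine of mucosal surfaces. Its values were 6.31, 6.92, 4.81, 3.88 and 4.22 in saline and 8.93, 8.37, 8.80, 8.80 and 8.05 in the dual group. SD-101 gave a lowest of 4.81, a median of 6.14 and a highest of 7.51, and the triple group gave 7.40, 5.28, 8.17 and 7.59. All 5 dual-group arrays were above all SD-101 and all saline arrays, and 1 triple-group array overlapped them. Cxcl17 rose against SD-101 by 2.45 (SE 0.59) on the log2 scale, or 5.45-fold, with a limma adjusted p of 0.0237.

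Slc26a4 encodes pendrin, an exchanger that brings bicarbonate and other anions to the airway surface in return for chloride. Saline arrays were at 5.16, 6.57, 3.80, 3.36 and 3.69, so that replicates 3, 4 and 5 lay near the array median, while dual-group arrays were at 8.83, 7.95, 7.34, 8.26 and 7.61. SD-101 arrays were at 5.27 to 7.18 with a median of 6.33, and triple-group arrays at 6.43, 3.84, 7.84 and 5.93. The dual group lay above saline and SD-101 without overlap, and 1 triple-group array lay within its range. Vnn1, whose product cleaves pantetheine in the recycling of coenzyme A, was also highest in the dual group, with means of 5.26 ± 1.45 (SD, n = 5), 6.14 ± 1.02 (n = 6), 8.23 ± 0.45 (n = 5) and 6.78 ± 1.35 (n = 4) in saline, SD-101, the dual group and the triple group.

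Bpifa1, a secreted lipid-binding protein of host defence, had another order. Saline values were 7.19, 8.22, 10.46, 7.50 and 7.80, dual-group values 5.34, 6.57, 6.93, 8.35 and 6.76, and triple-group values 4.55, 2.72, 2.76 and 5.81. SD-101 values ran from 2.60 through a median of 6.09 to 8.06. All 4 triple-group arrays lay below all saline arrays, and 3 arrays in all lay below the median of their own array. Bpifa1 fell by 4.27 (SE 1.03) on the log2 scale in the triple group against saline, with a limma adjusted p of 0.0168. Of the 4 triple-group values, 2 lay below the median of their own array, so no fold is given. The call was lost without Saline-CTRL replicate 3 (adjusted p = 0.0539), without triple-group replicate 2 (0.0518) or 3 (0.0529), and without both arrays of low T cell level (0.0534). Scgb3a1, a secretoglobin of larger airways, averaged 8.09 ± 1.12 (SD, n = 5) in saline, 7.94 ± 1.63 (n = 6) in SD-101, 8.71 ± 0.89 (n = 5) in the dual group and 6.38 ± 1.15 (n = 4) in the triple group, and neighbours in the order of means overlapped.

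SD-101 alone moved none of the 9 genes past the test against saline, where limma called 0.333% of all genes (57 at adjusted p under 0.05, and 1414 at unadjusted p under 0.05). The members' median difference was 0.06, against 0.012 over all genes, and 2 members had an unadjusted p under 0.05. These were Slc26a4, at 1.69 (95% interval 0.40 to 2.98, adjusted p = 0.436), and Bpifa1, at -2.52 (-4.48 to -0.56, adjusted p = 0.448). Pigr differed by 1.43 with an interval of -0.08 to 2.95, and Scgb1a1 by -0.15 with an interval of -1.40 to 1.09. The intervals of all 9 members were wide enough to hold differences of 1 log2 unit or more in some direction.

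With anti-PD-1 added to SD-101, 2 of the 9 genes rose, Cxcl17 and Cyp2f2, where 3.52% of all genes were called higher. In the fit without covariates all 9 differences were positive, from 0.77 for Scgb3a1 to 2.69 for Cyp2f2, with a median of 2.09 against 0.008 over all genes. In 4 of the 9, Pigr, Cxcl17, Slc26a4 and Vnn1, the groups did not overlap, as in 4.09% of all genes. Vnn1 differed by 2.09 (limma adjusted p = 0.0642), Scgb1a1 by 1.71 (0.107), Slc26a4 by 1.79 (0.104) and Scgb3a2 by 2.30 (0.123). The Cyp2f2 call held in 7 of 20 fits that each left out 1 array, and the Cxcl17 call in 15 of 20. Those fits called 1.27% to 4.76% of all genes higher. Without the 2 arrays of low T cell level 5 members were called, adding Pigr, Slc26a4 and Vnn1, and 4.83% of all genes were called higher in that fit. With array weights 7 members were called, and 11.1% of all genes were called higher. All 9 differences were negative with the ciliated marker level as a covariate, from -1.77 for Scgb3a2 to -0.14 for Bpifa1. That fit called 0 members, and 0.00585% of all genes either way.

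With a-CD4 added as well, all 9 genes had a lower mean than in the dual group, but limma called none of them, where 1.18% of all genes were called lower. The differences ran from -1.45 for Vnn1 to -3.04 for Scgb3a2, with a median of -2.33 against 0.0022 over all genes. The unadjusted limma p was under 0.05 for 8 of the 9 genes, and for 3060 of all 17097 genes. The smallest adjusted p of a member was 0.0881, for Scgb3a2. Without triple-group replicate 2, an array of low T cell level, the median was -1.54 and the smallest adjusted p 0.315. Vnn1 then stood at -0.85, Cxcl17 at -0.87, Slc26a4 at -1.26 and Pigr at -1.54, against -1.45, -1.48, -1.99 and -2.33 with it. In Scgb1a1, Scgb3a2 and Cyp2f2 all 4 arrays with a-CD4 lay below all 5 without, as in 4.53% of all genes. With array weights Scgb3a2, Cyp2f2 and Slc26a4 were called lower, with 4.19% of all genes, and with these 2 groups fitted alone Scgb3a2 and Cyp2f2 were, with 1.12%. With the ciliated level as a covariate 7 of the 9 differences turned positive, up to 1.33 for Cxcl17, and Scgb3a1 and Bpifa1 stayed negative. With the alveolar type 2 level the median was -0.66 and Vnn1 turned to 0.10. Neither fit called a member here, but they called only 0% (ciliated) and 0.0292% (alveolar type 2) of all genes either way. The lack of calls therefore says nothing particular about the members.

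**Figure D2:**
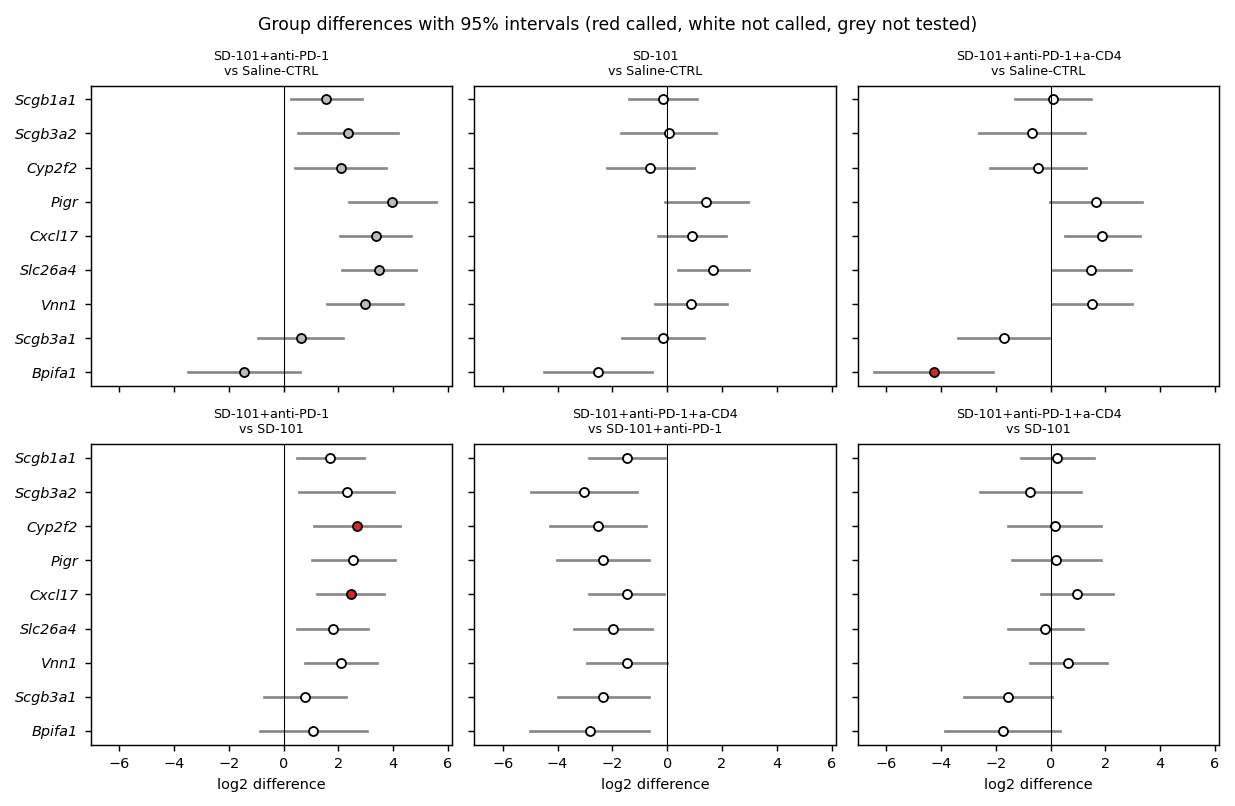
Log2 differences between groups for the 9 genes in 6 comparisons, with 95% intervals from the limma fit; red points passed the test, white points did not, and grey points were not tested because the comparison was used to choose genes. Red points are Bpifa1 at -4.27 in the triple group against saline and Cyp2f2 at 2.69 and Cxcl17 at 2.45 in the dual group against SD-101.

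In the triple group against saline 1 of the 9 genes changed, Bpifa1, where 3.03% of all genes were called lower and 7.12% either way. Bpifa1 was also the 1 member whose groups did not overlap there, as in 3.32% of all genes on the lower side. Cxcl17 differed by 1.89 (limma adjusted p = 0.0924), Pigr by 1.64 (0.253), Vnn1 by 1.52 (0.22) and Slc26a4 by 1.49 (0.215). Without both arrays of low T cell level, Cxcl17 rose by 2.77 (0.0187) and Slc26a4 by 2.38 (0.0432), with 3.47% of all genes called higher, and the Bpifa1 call was lost. In the triple group against SD-101, the comparison that shares no array with the choice of genes, limma called 0 of 9, where 0.983% of all genes were called (168 genes, and 2846 at unadjusted p under 0.05). The members' differences there ran from -1.75 for Bpifa1 to 0.97 for Cxcl17, with a median of 0.15 against 0.027 over all genes. Without triple-group replicate 2 the median was 0.68, and 0 of 9 were called, where 0.211% of all genes were. At such shares the lack of calls says nothing particular about the members.

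The 9 genes fell into 3 sets by how their arrays deviated from their group means, a grouping made after the values were seen and given as a description. Over the 20 arrays, Pearson's r between deviations was 0.87 to 0.95 among Pigr, Cxcl17, Slc26a4 and Vnn1, and 0.94 to 0.98 among Scgb1a1, Scgb3a2 and Cyp2f2. Scgb3a1 and Bpifa1 correlated at 0.90 with each other. Between the first and the second set r was 0.63 to 0.94, between the second and the third 0.35 to 0.61, and between the first and the third 0.01 to 0.37. All points share the array and its scaling. Without the 2 arrays farthest from the median, r was 0.83 to 0.92 in the first set, 0.93 to 0.97 in the second and 0.87 in the third.

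**Figure D3:**
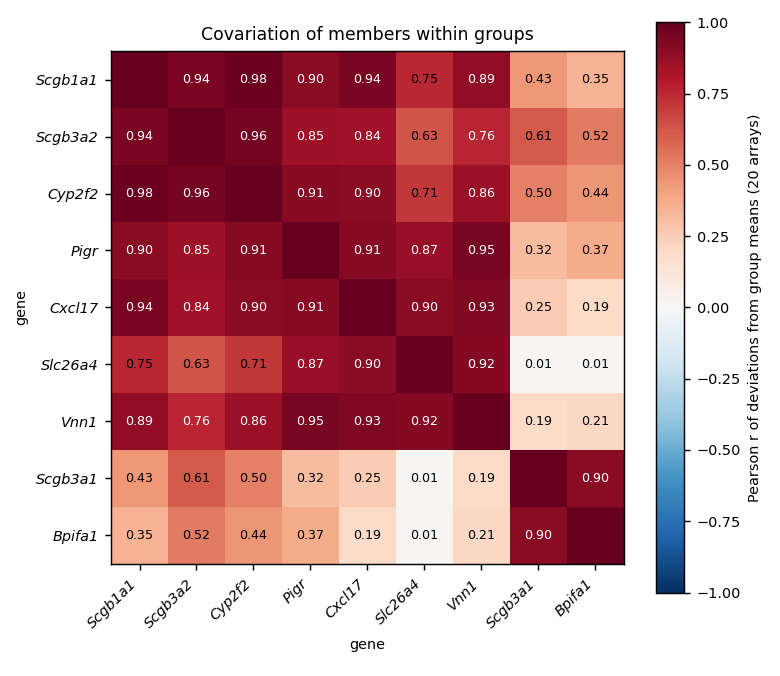
Pearson's r between the deviations of 2 genes from their group means over 20 arrays, for each pair of the 9 genes; colour and number give r. The 3 blocks along the diagonal hold r of 0.94 to 0.98 (Scgb1a1, Scgb3a2, Cyp2f2), 0.87 to 0.95 (Pigr, Cxcl17, Slc26a4, Vnn1) and 0.90 (Scgb3a1, Bpifa1).

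The first and the second set did not keep 1 distance across groups. The mean of Pigr, Cxcl17, Slc26a4 and Vnn1 minus the mean of Scgb1a1, Scgb3a2 and Cyp2f2 was -4.51 ± 0.45 (SD, n = 5) in saline, -3.05 ± 0.85 (n = 6) in SD-101, -3.07 ± 0.45 (n = 5) in the dual group and -2.53 ± 0.62 (n = 4) in the triple group. The size of the offset depends on the probes, and only its change between groups can be read. Saline arrays ran from -5.25 to -4.19 and those of the triple group from -3.27 to -1.94, so these groups did not overlap. SD-101 replicate 1, at -4.64, lay within the saline range, and the other SD-101 arrays, at -3.30 or above, did not. All dual-group arrays, at -3.52 to -2.38, lay above the saline range too. The sets were drawn from these arrays. Pigr, Cxcl17, Slc26a4 and Vnn1 were also chosen by their rise in the dual group against saline, which favours a gap above saline there. SD-101 and the triple group are read against the same saline arrays, so the choice favours a gap above saline in them too. The shift was not tested.

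**Figure D4:**
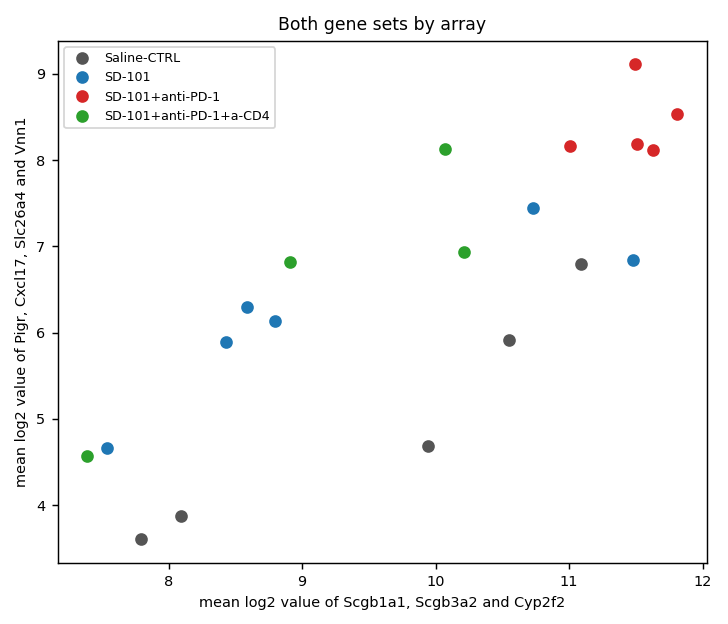
Mean log2 value of Pigr, Cxcl17, Slc26a4 and Vnn1 against that of Scgb1a1, Scgb3a2 and Cyp2f2, with 1 point per array coloured by group. The saline points and SD-101 replicate 1 lie lowest for their position along the horizontal axis, and the dual-group points sit at the upper right, with means of 8.43 and 11.49.

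The genes whose levels were most like the members' were found by Pearson's r over 20 arrays with the members' mean deviation. Genes with predicted or clone names were left out. Ptprd, a receptor phosphatase, had r = 0.965, Adh1, an alcohol dehydrogenase, 0.953, Ces1d, a carboxylesterase, 0.95, Gstt1, a glutathione transferase, 0.941, Sec14l3, a lipid-binding protein, 0.941, and Tmprss2, a membrane protease, 0.925. Within groups the same genes had r of 0.946, 0.937, 0.961, 0.903, 0.943 and 0.858. Sftpc had r = 0.906 and 0.908 within groups, the ciliated cell factor Foxj1 0.779 and 0.566, the epithelial surface gene Epcam 0.556 and 0.287, and Cd8a 0.26 and 0.245.

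The mean level of the ciliated cell markers had r = 0.91 with that of the members over the 20 arrays. This r and those of the marker levels below include the differences between groups. No r within groups was taken for a list. Of 11 ciliated cell markers measured, 10 rose in the dual group against saline and 10 against SD-101, and 8 fell when a-CD4 was added. Foxj1, the master factor of motile cilia, rose by 2.36 (SE 0.26, limma adjusted p = 0.000178) against saline and by 2.01 (SE 0.25, adjusted p = 0.000398) against SD-101. The mean ciliated level was 3.34 to 4.92 in saline, 3.69 to 5.18 in SD-101, 5.66 to 6.61 in the dual group and 3.62 to 4.99 in the triple group, so the dual group did not overlap the others. With this level as a covariate the members' median difference of the dual group from saline was -0.88, and that of Pigr was 0.30. Against SD-101 this fit called 0.00585% of all genes either way, where 4.77% were called without a covariate. Both calls against SD-101 were lost in that fit, with Cyp2f2 at -1.15 (adjusted p = 0.917) and Cxcl17 at -0.53 (adjusted p = 1).

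Alveolar type 2 markers had r = 0.88 with the members. Of 7 measured, 0 were called in the dual group against saline and 1 rose against SD-101, with mean levels of 8.66 to 10.90, 8.49 to 9.86, 10.32 to 10.90 and 8.66 to 10.12 in saline, SD-101, the dual group and the triple group. With this level as a covariate the median difference from saline was 0.94, and Pigr, Slc26a4, Cxcl17 and Vnn1 differed by 2.49, 2.23, 2.08 and 1.59, while Scgb1a1 stood at 0.33, Cyp2f2 at 0.57 and Scgb3a2 at 0.94. Both calls against SD-101 were lost, with Cyp2f2 at 0.63 (limma adjusted p = 0.935) and Cxcl17 at 0.70 (0.476), and 0.0702% of all genes were called higher there. In the same fit Pigr, Slc26a4, Cxcl17 and Vnn1 were called higher in SD-101 against saline, with 0.409% of all genes. They stood at 1.98, 2.15, 1.39 and 1.39 (limma adjusted p = 0.0125, 0.0032, 0.00506 and 0.00428). These genes were chosen by their rise over the same saline arrays, so the calls are not independent of that choice. The fit without covariates called 0 members there. Of 8 alveolar type 1 markers, 0 were called in any comparison, and their mean level had r = 0.76 with the members. Of 12 pan-epithelial markers 3 rose against saline and 4 against SD-101. Basal cell markers, with a mean level of 3.44 to 3.91, and neuroendocrine and tuft cell markers, at 2.85 to 3.29, were near or below the array median in all groups, with 0 called in each of these comparisons and r of -0.28 and -0.21.

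All 12 endothelial markers fell in the dual group against saline, from a mean level of 7.43 to 9.55 to one of 4.76 to 5.77, and 7 of 11 heat shock and handling genes fell. The same counts, 12 of 12 and 7 of 11, fell in the dual group against SD-101 and in the triple group against saline, the comparisons in which members were called. Over the 20 arrays, differences between groups included, the members' level had r = -0.51 with the endothelial level and -0.65 with the handling level. With the fibroblast level r was 0.66. The endothelial gene Cdh5 had r = -0.503 over the 20 arrays but 0.066 within groups. Of 10 fibroblast markers 4 rose in the dual group against saline, and of 10 macrophage markers and 9 T cell markers 0 were called. In the dual group against SD-101, 1 fibroblast marker rose and 1 macrophage marker fell. In the triple group against saline, 2 fibroblast markers rose and 1 fell. The part of these shifts in the members' values was not tested.

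**Figure D5:**
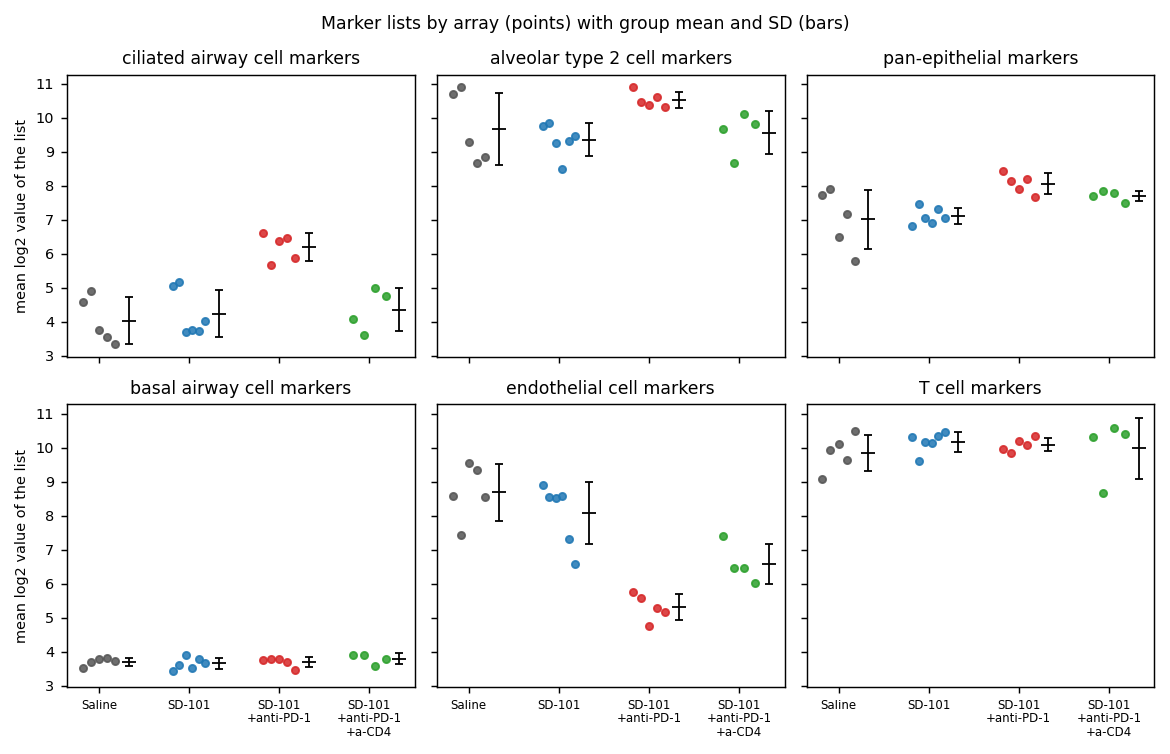
Mean log2 value of 6 marker lists on each array by group, with points for arrays and bars for the group mean and SD. Ciliated markers are high in the dual group (5.66 to 6.61), endothelial markers are low there (4.76 to 5.77), and basal and T cell markers differ little between group means.

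Other genes of airway secretory cells were counted beside the members. Of 20 club cell genes measured, 1 rose and 1 fell in the dual group against saline, where 5.63% of all genes were called: Gabrp, a GABA receptor subunit, rose by 1.58 (limma adjusted p = 0.0498) and Cyp4b1, a cytochrome P450, fell by 1.70 (0.0145). Their median difference was 0.79, and 17 of 20 were positive. Against SD-101 the P450 gene Cyp2b10 rose by 1.95 (0.0275) and the cholecystokinin receptor gene Cckar by 1.97 (0.0282). Cckar fell by 2.31 (0.0357) when a-CD4 was added. In the triple group against saline, Cyp4b1 fell by 2.14 (0.00445) and Gsto1, a glutathione transferase, rose by 0.76 (0.0292).

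Of 21 mucous cell genes, 3 rose in the dual group against saline, the membrane mucins Muc4, by 1.15 (limma adjusted p = 0.0029), and Muc20, by 1.56 (0.0394), and the mucus protein gene Fcgbp, by 0.99 (0.0179). The secreted airway mucins did not pass, with Muc5b at 1.05 (0.0849) and Muc5ac at 0.25 (0.302). Against SD-101, 4 rose, led by Muc4 at 1.23 (0.00248), Fcgbp at 1.01 (0.017) and Muc20 at 1.52 (0.0436). Muc4 fell by 1.0 (0.031) when a-CD4 was added.

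Of 15 airway ion transport genes, which act at the same surface as pendrin, 1 rose against saline, the water channel gene Aqp4, by 0.82 (limma adjusted p = 0.00517). Against SD-101, 4 rose, among them Aqp4, by 0.80 (0.00736), and the sodium channel subunits Scnn1b, by 1.30 (0.018), and Scnn1a, by 1.40 (0.0285). Aqp4 fell by 0.83 (0.0214) with a-CD4. Of 20 airway defence genes, 3 rose against saline: Duoxa1, which matures a peroxide-making oxidase, by 0.48 (0.00695), the protease inhibitor Slpi by 2.43 (0.0269) and Retnla, a secreted resistin-like protein, by 2.11 (0.0403). Against SD-101, Duoxa1 rose by 0.37 (0.0377).

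Of 19 family relatives of the members, 2 rose and 1 fell against saline. Vnn3, a relative of Vnn1, rose by 0.96 (limma adjusted p = 0.016), the sulphate transporter Slc26a2 rose by 0.54 (0.0404) and Slc26a10 fell by 0.91 (0.0383). Against SD-101, 4 rose, led by Slc26a2 at 0.61 (0.0218), Bpifb5 at 1.42 (0.0266) and Cyp2b10 at 1.95 (0.0275). In the triple group against saline Slc26a3 fell by 0.43 (0.0422). Of 8 genes of coenzyme A synthesis, Vnn3 alone rose against saline. Against SD-101 Vnn3 rose by 0.85 (0.0303) and Pank4, a pantothenate kinase relative, fell by 0.73 (0.0375), and in the triple group against saline Pank4 fell by 0.71 (0.0497). Vnn3, Cyp2b10, Cyp2a5, Cyp2s1, Bpifb1 and Slc26a9 each stand in 2 of these lists.

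Antibody genes, whose polymeric products are the cargo of the Pigr receptor, followed another order than Pigr. Jchain, the joining chain of polymeric antibodies, rose by 3.49 (limma adjusted p = 0.0145) and Ighm, the IgM heavy chain, by 3.60 (0.0172) with SD-101 alone, and by 2.85 (0.0088) and 2.76 (0.0178) in the dual group. These were 2 of 8 genes of antibody-secreting cells. Jchain did not pass in the dual group against SD-101, at -0.64 (0.654), where Pigr differed by 2.54. Pou2af1, a coactivator of B cells, fell by 2.35 (0.0262) in the triple group against SD-101. In SD-101 against saline no gene of the other lists was called, and the antimicrobial Slpi, for one, stood at 2.20 (0.184). Of 10 cytokine genes that act on airway epithelium, 0 were called in the dual group against saline, with Il33 the nearest at 1.69 (0.109), and Ifng differed by 0.52 (0.66) and Il13 by 0.16 (0.589). Il33, an alarm cytokine of barrier epithelium, rose by 1.98 against SD-101 with a limma adjusted p just under the threshold.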

How the data were processed

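Affymetrix arrays of perfect-match probes were measured for 20 samples in 4 groups, named from their titles and agents. The authors deposited log2 values per probe set, which range from 1.78 to 13.44 and were used as given; the submitters' processing notes name affy, RMA, limma and build mm8, without roles or versions. Of 45141 probe sets, 28898 had 1 gene symbol and 551 had several; the probe set of highest mean over all arrays stood for each of 17097 genes. Arrays carry no read depth, and their number limits the precision.

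All 20 arrays were fitted with group means in limma 3.58.1 (R 4.3.3), 2-sided, and a gene was called at a Benjamini-Hochberg adjusted p under 0.05 over all genes. The fit was tested on simulated data. Intervals are 95% and marker levels are means of log2 values. Named are the members, up to 3 called genes of smallest p per list, and others a result touches, such as Muc5ac, Muc5b, Ifng and Il13, chosen after their values were seen. Members, lists and tests were chosen with earlier results of these data known. Over all genes, same-numbered replicates did not consistently deviate together (r -0.39 to 0.51). Of 20 arrays 4 correlated best with their own number, so no pairing was used. Scgb1a1 was higher in replicates 1 and 2 than in 4 and 5 in both saline and SD-101. The dual and triple groups did not show that order. Alternatives were probe set choice, scaling, a level filter, variance model, array weights, block, marker levels as covariates and left-out arrays. Promoters came from RefSeq (GRCm38.p6) and Scgb3a2 sequence was not used here.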

Additional observations from a re-analysis of the deposited data

Results flagged for a closer look

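Among 36 pairs of a gene and a group, 1 array stood far from the others of its group. Vnn1 read 8.99 on dual-group (SD-101+anti-PD-1) replicate 1, and the nearest array of the group read 8.13, a gap of 0.71 of the group's whole range. By chance about 1 in 20 such groups would show an array this far apart.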

How the results depend on the processing

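Each result was recomputed under 33 other settings. The members' median difference of the dual group from saline (2.36) ran from 1.90 to 2.75 over the fits that left out 1 array. It was 0.94 with the alveolar type 2 level as a covariate and -0.88 with the ciliated level, whose dual-group arrays lie outside the range of the other groups. In that ciliated fit Scgb1a1 was at -1.71, Scgb3a2 at -2.15, Scgb3a1 at -0.88, Cyp2f2 at -2.17 and Vnn1 at -0.22 against saline, and Cyp2f2 at -1.15 and Cxcl17 at -0.53 against SD-101. The other 7 members also turned negative against SD-101, and 7 of 9 turned positive in the triple group against the dual group. Other settings kept the direction of called genes.

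Counts of called members moved as follows, and the cause was not tested. Shares of all genes called either way in the same fit stand in brackets. In SD-101 against saline, 4 were called with the alveolar type 2 covariate (0.538%) and 0 otherwise (0.0585% to 0.749%). In the triple group against saline, 1 was called (7.12%). With array weights 5 were called (10.4%), and with the alveolar type 2 covariate 5 (9.1%). The ciliated covariate gave 2 (9.76%). Leaving out both arrays of low T cell level, a choice made after seeing the data, also gave 2 (5.47%). Leaving out 1 array gave 0 to 2 (3.89% to 7.39%). In the dual group against SD-101, 2 were called (4.77%). Among genes above the median level 1 was called (3.8%), and with array weights 7 (16.1%). The alveolar type 2 (0.117%) and the ciliated covariate (0.00585%) gave 0. The 2 groups alone gave 5 (7.79%), and leaving out both low arrays gave 5 (6.55%). Leaving out 1 array gave 0 to 5. It gave 0 without SD-101 replicate 3 (2.37%) or 4 (2.18%), or dual-group replicate 1 (2.01%), 3 (2.47%) or 4 (1.85%). It gave 5 without triple-group replicate 2 (5.91%). In the same comparison 3 were called with the mean of all probe sets (4.83%) or the probe set of highest SD (4.99%). The trended and robust variance (4.68%) and the T cell covariate (6.87%) also gave 3. After quantile normalization 2 were called (4.53%), Cxcl17 and Pigr (limma adjusted p = 0.0492), and Cyp2f2 was not (0.0518). In the triple group against the dual group, 0 were called (2.13%). With array weights 3 were called (7.29%), and with the 2 groups alone 2 (1.99%). Leaving out 1 array gave 0 to 1 (0.427% to 2.85%). With the replicate number as a block, 1 member in place of 2 was called in the dual group against SD-101 (4.39%). Cyp2f2 then stood at 2.57 (limma adjusted p = 0.0893), and the block changed no other call of a member.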
